A study of Homo sapiens with 6 samples.

Results

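A set of 10 genes that drive mammalian cells through G1 and into S phase was examined in LNCaP cells, a human line from a prostate cancer metastasis that responds to androgen, with and without knockdown of the retinoblastoma protein RB. They were taken by name as the D-type cyclins CCND1, CCND2 and CCND3, the E-type cyclins CCNE1 and CCNE2, the kinases CDK2, CDK4 and CDK6, the phosphatase CDC25A and the F-box protein SKP2. All 10 had a row among the 22279 Ensembl transcript IDs of the deposited count table, 1 row each. RNA was sequenced in 6 libraries. In 3 of them the cells carried a hairpin against RB (shRB) and in the other 3 a control hairpin, shCON. Before harvest both kinds of cell were kept for 72 h in what the labels name CDT and file under cell cycle arrest, a condition the series text calls deficient in hormone. The labels give 1 hairpin name per group and do not say whether the cells were a clone or a pool, or whether replicates were separate cultures. The p-values therefore measure the spread between these libraries, which may be technical, and an effect of RB loss and one of the particular hairpin or cell population cannot be told apart.

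In the textbook scheme, mitogens raise D-type cyclins, which bind CDK4 or CDK6 and begin to phosphorylate RB. RB then releases E2F transcription factors, whose targets include E-type cyclins, and cyclin E with CDK2 completes RB phosphorylation and fires entry into S phase. CDC25A removes inhibitory phosphates from CDK2, and SKP2 directs the CDK inhibitor p27 (CDKN1B) to degradation. In prostate cells, androgen is known to feed into this scheme through the D-type cyclins, and RB is a frequent loss in advanced prostate cancer.

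Total counts were 9780579 to 10898768 in shRB and 6115310 to 20091488 in shCON. The level of a gene is its CPM, or count relative to the library total with TMM scaling, and a difference is the log2 fold change of shRB over shCON with its standard error (SE). A gene passed at a Benjamini-Hochberg adjusted p under 0.05 in edgeR's quasi-likelihood test over all 11712 genes tested. RB1 mRNA read 5.83, 3.82 and 5.41 CPM in shRB, against 56.6, 52.7 and 54.7 CPM in shCON. Every library thus matched its hairpin label. All 8 luminal prostate markers looked for (KLK3, KLK2, HOXB13, KRT8, KRT18, FOLH1, TMPRSS2 and FOXA1) were expressed, with a summed level of 4116 to 4394 CPM in shRB and 4467 to 4657 CPM in shCON. They did not move together: KLK2 (log2 fold change 0.98) and KLK3 (0.45) rose, FOLH1 (−0.48) fell and 5 did not pass. The basal marker KRT5, the stromal marker COL1A2 and the leukocyte marker PTPRC had no count in any library. The summed level of the 3 basal markers with a row was at most 0.11 CPM in shRB and 0.64 CPM in shCON, that of the 4 stromal markers 12.3 to 15.9 CPM in shRB and 16.6 to 20.3 CPM in shCON, and that of the 5 leukocyte markers 5.01 to 5.31 CPM in shRB and 5.39 to 7.26 CPM in shCON. COL1A1 made up most of the stromal sum and CD68 most of the leukocyte sum. The library shRB 2 stood apart from the other 2 shRB libraries on the second principal component (−20.0 against 11.3 and 11.5, with 16.9% of the variance). The deviation of each library from its group mean had, across genes, a Spearman correlation with transcript GC content of −0.51, 0.69 and −0.54 in shRB 1 to 3 and −0.51, 0.53 and −0.087 in shCON 1 to 3, so that shRB 2 and shCON 2 shared a sign.

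Of the 10 genes, 8 had enough counts to be tested, 6 of these rose in shRB, 0 fell, and CCND1 and CCNE2 did not pass. Across all genes tested, 12.8% rose and 12.5% fell. The count of 6 was 3 without shCON 1 and 4 without shCON 3, and 5 or 6 without any other single library. Over all genes, 863 of 11798 tested rose without shCON 1, 969 of 11818 without shCON 3 and 2074 of 11877 without shRB 2, against 1499 of 11712 with all libraries. Without shRB 2 the log2 fold changes were 0.98 for CDC25A, 0.72 for CDK2, 0.56 for CCNE1, 0.42 for SKP2, 0.27 for CCND3, 0.26 for CDK4, 0.05 for CCNE2 and −0.09 for CCND1, and the same 6 genes passed. The median log2 fold change of the 8 tested genes was 0.32, against −0.01 over all genes tested. CDC25A rose the most, followed by CDK2 and CCNE1, while CCND3, SKP2 and CDK4 rose by similar small amounts. In 6 of the 8, all 3 shRB libraries lay above all 3 shCON libraries, an arrangement found in 21.0% of all genes tested, and the reverse, found in 20.2%, was seen in none of the 8. In bulk RNA, a larger share of cells in a cell cycle phase and more RNA per cell cannot be told apart.

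**Figure D1:**
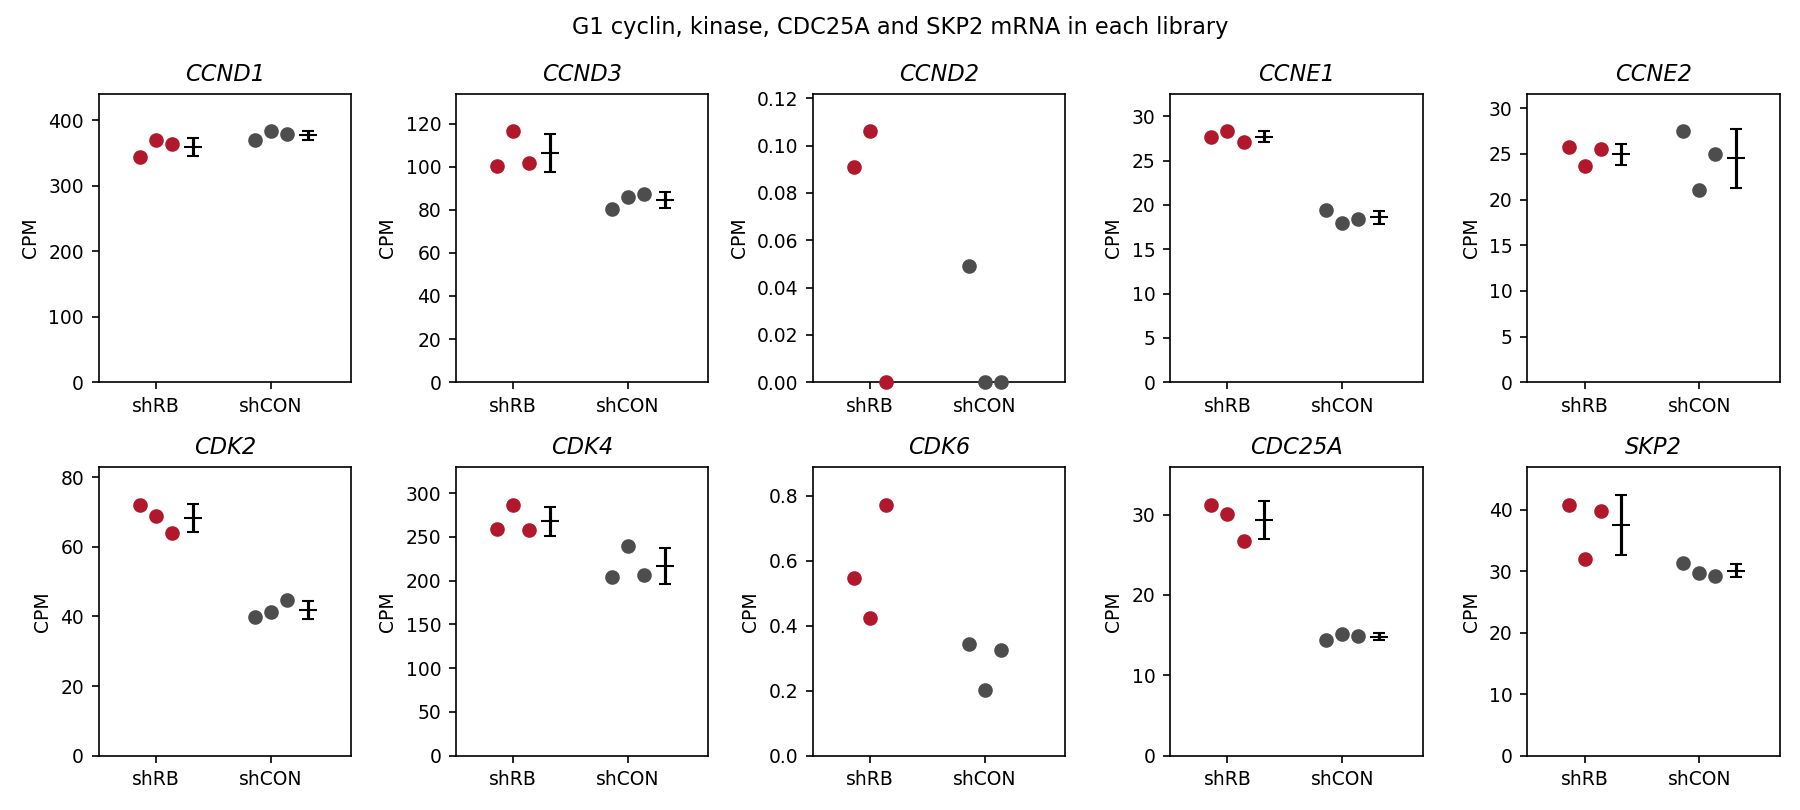
Level of each of the 10 genes in CPM (vertical axes, each from 0) in the 3 shRB libraries (red, left) and the 3 shCON libraries (grey, right), with replicates 1 to 3 from left to right and, for the 8 tested genes, the mean and SD as black bars. CDC25A sits between 26.7 and 31.2 CPM in shRB and between 14.4 and 15.2 CPM in shCON, whereas CCND1 and CCNE2 overlap between groups and CCND2 and CDK6 stay at or below 0.77 CPM.

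To set the genes beside their control regions, RefSeq promoter windows (GRCh38.p14, 250 bases before to 50 after a start) were searched. These coordinates are of another build than the hg19 named for the counts and were not used with them. A window was found for 6 of the 10 genes (CCND3, CCNE1, CDK4, CDK6, CDC25A and SKP2). The E2F site was spelled TTTCCCGC, TTTCGCGC, TTTGCCGC or TTTGGCGC on either strand, and occurred in 3.31% of 35116 windows. The CCAAT box (CCAAT, either strand) occurred in 34.6%, and the E box (CACGTG, added after the windows had been seen) in 7.26%. The 3 windows below, printed 5′ to 3′ over the 250 bases before the start, belong to the gene with the largest rise (CDC25A), to the E-type cyclin that rose (CCNE1) and to the kinase with repeated E boxes (CDK4). Capitals mark the E2F site and CCAAT boxes in CDC25A and the E boxes in CDK4.
CDC25A, chr3:48188418-48188667, minus strand: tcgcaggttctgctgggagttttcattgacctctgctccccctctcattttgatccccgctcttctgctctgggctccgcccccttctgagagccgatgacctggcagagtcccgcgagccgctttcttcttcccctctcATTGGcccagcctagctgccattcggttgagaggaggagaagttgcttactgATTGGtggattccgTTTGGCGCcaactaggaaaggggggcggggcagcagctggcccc
CCNE1, chr19:29811741-29811990, plus strand: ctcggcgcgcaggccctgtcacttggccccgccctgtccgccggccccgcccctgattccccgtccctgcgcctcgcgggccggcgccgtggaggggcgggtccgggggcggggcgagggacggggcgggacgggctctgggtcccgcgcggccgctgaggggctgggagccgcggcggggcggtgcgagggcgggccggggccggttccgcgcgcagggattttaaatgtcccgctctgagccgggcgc
CDK4, chr12:57752311-57752560, minus strand: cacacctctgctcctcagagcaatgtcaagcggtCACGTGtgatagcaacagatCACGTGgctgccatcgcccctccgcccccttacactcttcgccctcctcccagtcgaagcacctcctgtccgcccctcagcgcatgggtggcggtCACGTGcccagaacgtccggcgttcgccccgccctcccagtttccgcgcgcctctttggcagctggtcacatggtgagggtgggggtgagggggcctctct

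Among the members' windows, 1 gene held the E2F site. It was CDC25A, with TTTGGCGC from base −44 to −37 before the start, and with CCAAT boxes on the opposite strand from −110 to −106 and from −58 to −54. The CDK4 window held 3 E boxes, from −216 to −211, −196 to −191 and −101 to −96, and 1 CDK6 window held an E box from base 31 to 36 after the start. The CCNE1 stretch held none of the motifs searched and was 81.2% G and C, against 60% in CDC25A and 65.6% in CDK4. The CHR element (TTTGAA or TTCGAA, in 16.4% of windows) and the TATA box (TATAAA, in 11.5%) were in none of the members' windows, and the CRE core (TGACG, in 24.6%) was in 1 CDK6 window. CCND3 had CCAAT boxes in 2 of its 3 windows, and SKP2 had none of the motifs. Counted by gene, the E2F site stood in a window of 10 of 17 G1/S output genes, 4 of 8 E2F and DP factors and 3.99% of all genes with a window. It was in 1 of 6 genes of CDK phosphorylation, 1 of 9 CDK inhibitors and pocket proteins and 3 of 28 other cyclins and CDKs. Of genes of cyclin and p27 ubiquitination 0 of 9 held it, and of transcription factors upstream of D-type cyclins 0 of 12. These are matches of letters and not measured binding. Only the exact spellings given were searched, so a window without a match, such as that of CCNE1, may hold a site of another spelling.

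CCND1 was the most abundant D-type cyclin per kilobase of transcript in every library. CCND1 (chromosome 11) encodes cyclin D1, which receives growth factor and hormone signals. It read 343.2, 370.1 and 363.3 CPM in shRB, against 369.7, 383.2 and 378.9 CPM in shCON. The groups overlapped by a narrow margin, with shRB 2 just above shCON 1. The log2 fold change was −0.07 ± 0.07 (SE), with a 95% interval of −0.22 to 0.07 and an edgeR adjusted p of 0.48. Exons of the opposite-strand gene LTO1 cover 11.5% of the CCND1 transcript. LTO1 averaged 7.50 CPM in shRB and 7.45 CPM in shCON.

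CCND3 (chromosome 6), which encodes cyclin D3, a D-type cyclin best known from lymphoid and muscle development, read 100.4, 116.5 and 101.9 CPM in shRB, against 80.4, 85.9 and 87.4 CPM in shCON. All shRB libraries were above all shCON libraries. It rose 1.26-fold (log2 fold change 0.33 ± 0.08, edgeR adjusted p = 0.010). Without shCON 1 it was 0.29 with an edgeR adjusted p of 0.066, and without shRB 2 it was 0.27. CCND2 (chromosome 12), which encodes cyclin D2 and is known to be silenced in many prostate cancers, had 2 counts over the 3 shRB libraries and 1 count over the 3 shCON libraries. Both are under a floor of 3 counts per group, equal to 0.098 CPM in shRB and 0.082 CPM in shCON, so no difference could be seen at this depth.

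The CCND1 part of the D-type cyclins was smaller in every shRB library. Per kilobase of transcript, CCND1 made up 62.3%, 60.6% and 63.3% of the summed D-type cyclin level in shRB, against 69.0%, 68.4% and 67.7% in shCON. The groups did not overlap. The mean was 62.1% ± 1.38 in shRB and 68.4% ± 0.64 in shCON (SD, n = 3 each), a difference of −6.28 percentage points with an exact two-sided permutation p of 0.1, the smallest that 3 against 3 libraries allow.

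CCNE1 and CCNE2 encode cyclins E1 and E2, partners of CDK2 and both known E2F targets, and their values differed. CCNE1 (chromosome 19) read 27.7, 28.3 and 27.2 CPM in shRB, against 19.4, 18.0 and 18.5 CPM in shCON. The replicates of each group lay close together and the groups were well apart. CCNE1 rose 1.48-fold (log2 fold change 0.57 ± 0.10, edgeR adjusted p = 0.0011), and it kept its call in all 16 alternatives, with values of 0.54 to 0.61.

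CCNE2 (chromosome 8) read 25.8, 23.7 and 25.5 CPM in shRB, inside the range of 27.5, 21.1 and 25.0 CPM in shCON. Its log2 fold change was 0.02 ± 0.12, with a 95% interval of −0.23 to 0.27 and an edgeR adjusted p of 0.93. The interval does not hold the value of CCNE1, though a p that misses the threshold does not show that CCNE2 stayed level. Exons of INTS8, an integrator complex gene on the opposite strand, cover 48.9% of the CCNE2 transcript. INTS8 averaged 79.8 ± 4.90 CPM in shRB and 87.2 ± 4.45 CPM in shCON (SD, n = 3 each; log2 fold change −0.12, edgeR adjusted p = 0.29), and the use of strand in counting is not given in the sources used here. The part of INTS8 reads in the CCNE2 count was not tested.

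Per kilobase, CCNE1 was 63.7%, 66.1% and 63.4% of the summed E-type cyclin level in shRB, against 53.5%, 58.2% and 54.6% in shCON. The groups did not overlap, and with full transcript lengths CCNE1 was the larger part in every library. The means were 64.4% ± 1.49 in shRB and 55.4% ± 2.43 in shCON (SD, n = 3 each; difference 8.98 percentage points, exact two-sided permutation p = 0.1, again the smallest possible). Exons of INTS8 cover 48.9% of the CCNE2 transcript. How far this shared stretch alters the CCNE2 level per kilobase, and so which part is larger, was not tested.

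**Figure D2:**
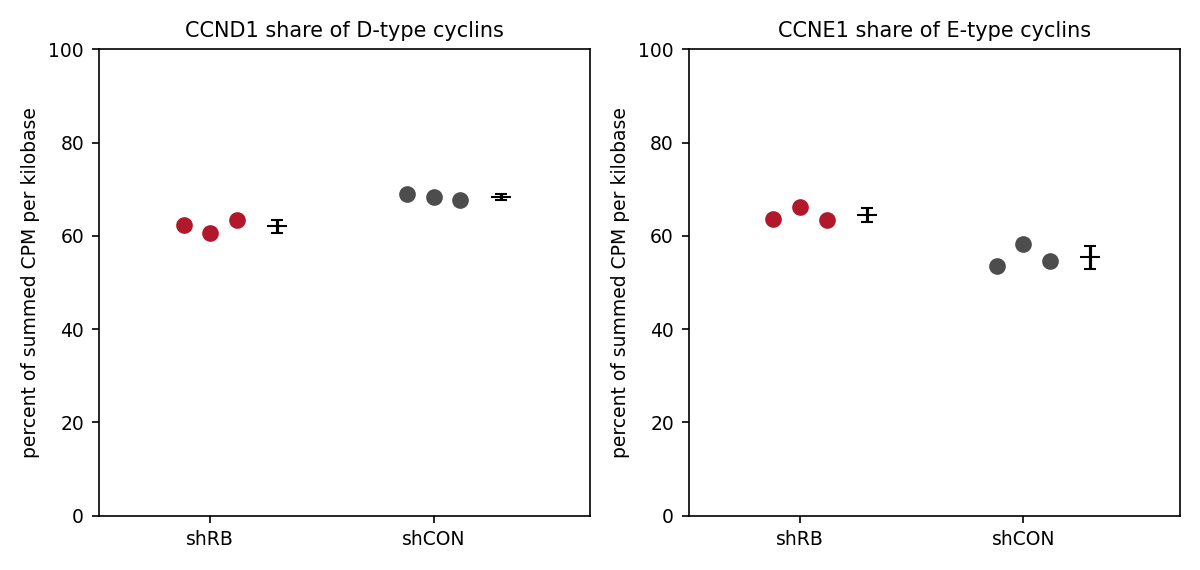
Share (percent of summed CPM per kilobase of transcript) of CCND1 among CCND1, CCND2 and CCND3 (left panel) and of CCNE1 among CCNE1 and CCNE2 (right panel) in 3 shRB libraries (red) and 3 shCON libraries (grey), with mean and SD as black bars. The CCND1 share averages 62.1% in shRB and 68.4% in shCON, and the CCNE1 share 64.4% in shRB and 55.4% in shCON. Exons of INTS8 cover 48.9% of the CCNE2 transcript, and their effect on the right panel was not tested.

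Among the tested kinases, CDK2 changed more than CDK4. CDK2 (chromosome 12), the partner of cyclins E and A, read 72.1, 68.9 and 64.0 CPM in shRB, against 39.8, 41.2 and 44.8 CPM in shCON. The lowest shRB library was well above the highest shCON library. CDK2 rose 1.64-fold (log2 fold change 0.71 ± 0.09, edgeR adjusted p = 7.2e-05), and all 16 alternatives kept the call, with values of 0.67 to 0.76. Exons of PMEL on the opposite strand cover 3.88% of the CDK2 transcript, and PMEL averaged 4.71 CPM in shRB and 4.90 CPM in shCON. An antisense gene without a value here, AC025162.1, covers 12.5%.

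CDK4 (chromosome 12), the main kinase partner of D-type cyclins in many epithelia, read 259.3, 286.9 and 257.5 CPM in shRB, against 204.0, 240.1 and 206.2 CPM in shCON. The groups were separate, and in each of them replicate 2 was the highest. CDK4 rose 1.24-fold (log2 fold change 0.31 ± 0.08, edgeR adjusted p = 0.016). It was 0.26 without shCON 1 (edgeR adjusted p = 0.091) and 0.28 without shCON 3 (edgeR adjusted p = 0.081). Exons of the opposite-strand gene TSPAN31, a tetraspanin, cover 51.9% of the CDK4 transcript. TSPAN31 fell, to 39.2 ± 1.91 CPM in shRB against 55.8 ± 2.05 CPM in shCON (SD, n = 3 each; log2 fold change −0.51, edgeR adjusted p = 0.00091), the direction opposite to that of CDK4. How far the overlap touches either count was not tested.

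CDK6 (chromosome 7), the other kinase of D-type cyclins and best known from blood cells, was close to the limit of detection. It had 6, 4 and 8 counts in shRB, against 7, 2 and 2 counts in shCON, or 18 against 11 counts in all. In CPM, which allows for depth, it read 0.55, 0.42 and 0.77 in shRB, against 0.34, 0.20 and 0.33 in shCON. The groups did not overlap in CPM, though each value rests on at most 8 counts. Scaled to library totals over the tested genes with TMM scaling, the shRB rate was 1.94 times the shCON rate. Its exact 95% binomial interval of 0.87 to 4.54 covers counting error only and includes no change. CDK4 made up at least 99.9% of the CDK4 and CDK6 level per kilobase in every library (mean 99.96% ± 0.014 in shRB and 99.98% ± 0.0083 in shCON; SD, n = 3 each; exact two-sided permutation p = 0.3).

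CDC25A (chromosome 3) had the largest rise of the 8 tested genes. It read 31.2, 30.0 and 26.7 CPM in shRB, against 14.4, 15.2 and 14.9 CPM in shCON. Every shRB library was far above the shCON libraries, which differed little from each other. CDC25A rose 1.99-fold (log2 fold change 0.99 ± 0.11, 95% interval 0.75 to 1.23, edgeR adjusted p = 2.7e-05) and ranked 184 of 11712 by p. All 16 alternatives kept the call, with values of 0.94 to 1.06. The 20 tested genes nearest to it (10 on each side in gene order) had a median log2 fold change of 0.29, and the 663 tested genes of chromosome 3 one of 0.15. For the other 7 tested members the median of the 20 neighbours lay between −0.18 and 0.03. The part of this local shift in the CDC25A value was not tested.

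SKP2 (chromosome 5), the substrate receptor of the ubiquitin ligase that marks p27, read 40.8, 31.9 and 39.7 CPM in shRB, against 31.3, 29.6 and 29.2 CPM in shCON. The shRB 2 library was only just above the highest shCON library, while shRB 1 and shRB 3 were well above it. SKP2 rose 1.24-fold (log2 fold change 0.32 ± 0.11, edgeR adjusted p = 0.049), at the edge of the threshold. DESeq2 gave 0.32 with an adjusted p of 0.071, and the call was lost in 11 of 16 alternatives with the direction the same in all. Without shRB 2 the value was 0.42 and passed (edgeR adjusted p = 0.00030).

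**Figure D3:**
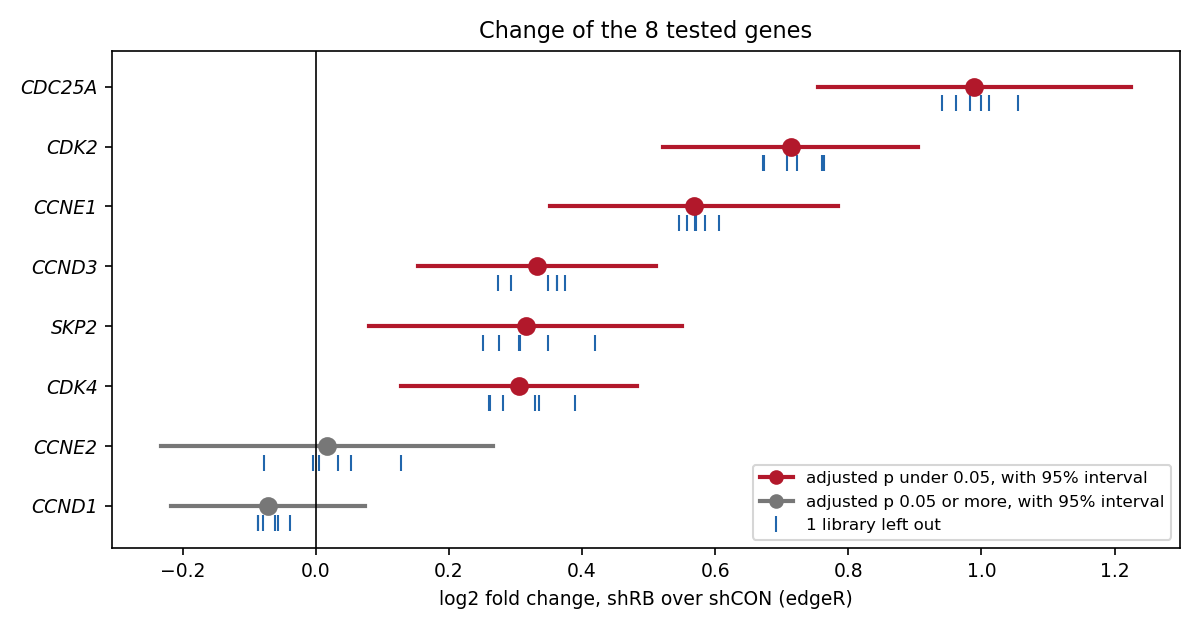
Log2 fold change of shRB over shCON (horizontal axis) for the 8 tested genes, with points for the edgeR estimate, lines for its 95% interval, and blue ticks below for the values with 1 library left out. CDC25A (0.99), CDK2 (0.71) and CCNE1 (0.57) stand to the right of CCND3 (0.33), SKP2 (0.32) and CDK4 (0.31), and the intervals of CCNE2 (0.02) and CCND1 (−0.07) include 0.

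Ordered by level per kilobase in shRB, CDK4 was first with 129.0 ± 7.93 CPM per kilobase, followed by CCND1 (83.3 ± 3.24), CCND3 (51.0 ± 4.27), CDK2 (29.8 ± 1.79), CCNE1 (13.6 ± 0.29), SKP2 (9.97 ± 1.29), CDC25A (7.75 ± 0.63) and CCNE2 (7.50 ± 0.35; SD, n = 3 for all). CDK6 (0.050) and CCND2 (0.010) were far below. In shCON the order was CDK4 (104.4 ± 9.76), CCND1 (87.6 ± 1.60), CCND3 (40.6 ± 1.78), CDK2 (18.3 ± 1.12), CCNE1 (9.11 ± 0.35), SKP2 (7.99 ± 0.29), CCNE2 (7.37 ± 0.97) and CDC25A (3.91 ± 0.11). The libraries of CDC25A and CCNE2 overlapped in shRB, where CDC25A was the last but one of the tested genes, whereas in shCON CDC25A was below CCNE2 in every library. In shCON the libraries of SKP2 and CCNE2 overlapped as well, and no other neighbours in either order did. Full transcript lengths were used, although exons of INTS8 cover 48.9% of CCNE2 and those of TSPAN31 51.9% of CDK4. The places of CCNE2 and CDK4 may therefore depend on how shared bases were counted, which was not tested.

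Other genes of the pathway were counted in lists by role. Each count below stands beside 12.8% higher and 12.5% lower over all genes tested. Among 8 genes of CDK phosphorylation, which include the kinase chaperone CDC37, 4 rose, 0 fell and 4 did not pass. PKMYT1 and WEE1, kinases that place inhibitory phosphates on CDKs (PKMYT1 mainly on CDK1), rose with log2 fold changes of 0.76 ± 0.10 and 0.52 ± 0.08, and the phosphatase CDC25B with 0.66 ± 0.10 (SE; edgeR adjusted p of at most 0.00045). Genes of both the inhibitory kinases and the opposing phosphatase were thus higher. The CDK-activating kinase subunits CDK7, CCNH and MNAT1 were among those that did not pass, at −0.001, −0.08 and 0.03. These 3 were chosen after their values were seen.

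Of 6 tested genes of cyclin and p27 ubiquitination 1 rose and 0 fell, against 12.8% and 12.5% of all genes tested. It was CKS1B, the cofactor that SKP2 needs to recognise p27, with 16.5 ± 0.42 CPM in shRB and 11.0 ± 1.12 CPM in shCON (SD, n = 3 each; log2 fold change 0.60, edgeR adjusted p = 0.0033). AMBRA1, the receptor for D-type cyclin degradation, was at 0.27 (edgeR adjusted p = 0.073) and FBXO31, a cyclin D1 F-box protein, at 0.25 (edgeR adjusted p = 0.078). Of 10 CDK inhibitors and pocket proteins, 3 rose, 2 fell and 5 did not pass. The rises were in CDKN1A (log2 fold change 1.38 ± 0.07), which encodes p21, CDKN2C (0.55 ± 0.10), which encodes the CDK4 and CDK6 inhibitor p18, and CDKN1C (0.61 ± 0.14), and the falls in RB1 itself (−3.43 ± 0.14) and CDKN1B (−0.34 ± 0.08), the gene of p27 (edgeR adjusted p of at most 0.0069). CKS1B mRNA was thus higher and CDKN1B mRNA lower, while mRNA for the inhibitors p21 and p18 was higher. SKP2 mRNA was higher at the edge of the threshold, and its call was lost in 11 of 16 alternatives. SKP2 and CKS1B act on p27 protein, which was not measured here. CDKN1C and CDKN1B fell outside the rule by p and were named after their values were seen.

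Among 10 E2F and DP factors 4 rose and 0 fell, with E2F1 at 0.52 ± 0.10, E2F2 at 0.95 ± 0.19 and E2F8 at 0.79 ± 0.17 (SE; edgeR adjusted p of at most 0.0039). Among 19 tested G1/S output genes 15 rose and 0 fell, with a median log2 fold change of 0.59. The count was 14 to 17 with 1 library left out. The replication helicase subunits MCM2 (0.85 ± 0.07) and MCM4 (0.59 ± 0.07) and thymidine kinase TK1 (0.82 ± 0.09) had the smallest p. NPAT, the histone gene activator that cyclin E with CDK2 phosphorylates, was at −0.0006 ± 0.14, did not pass and was chosen after its value was seen.

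Of 11 tested transcription factors known upstream of D-type cyclins, 1 rose, 0 fell and 10 did not pass by edgeR (median −0.15; 0 or 1 lower with 1 library left out). MYC, also of this list, had no row matched to its name and was not tested. With DESeq2 1 of 13 was lower, without a filter 2 of 13, and with the replicate block 2 of 11. STAT5A, which had too few counts for the edgeR filter and was chosen after its values were seen, had 0.0911, 0.106 and 0.0966 CPM in shRB 1 to 3, against 1.47, 1.81 and 0.654 CPM in shCON 1 to 3. JUN rose with a log2 fold change of 0.35 ± 0.08 (edgeR adjusted p = 0.0049), while CREB1 was at −0.27 (edgeR adjusted p = 0.098) and STAT3 at −0.15 (edgeR adjusted p = 0.14). Among 25 other tested cyclins and CDKs, 4 rose and 2 fell, with a median of 0.02, against 12.8% and 12.5% of all genes tested. The mitotic genes CDK1 (0.83 ± 0.09), CCNB1 (0.55 ± 0.07) and CCNB2 (0.55 ± 0.08) had the smallest p (edgeR adjusted p of at most 0.00023). With 1 library left out, 3 to 5 of this list rose and 0 to 2 fell, with 0 lower without shCON 1 and 1 lower without shCON 2 or shRB 1. None of these lists was tested as a set.

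**Figure D4:**
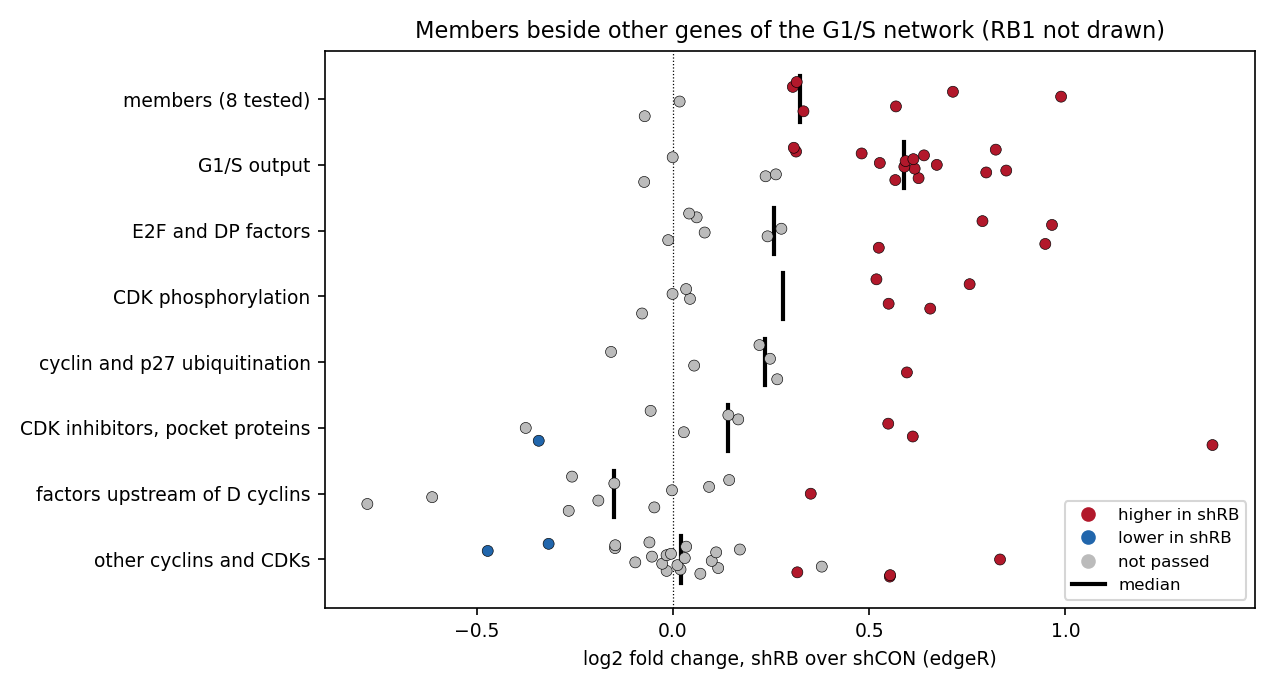
Log2 fold change of shRB over shCON (horizontal axis) of every tested gene in the members' group and in 7 other lists of the G1/S network, 1 point per gene, red where higher and blue where lower at an edgeR adjusted p under 0.05, grey otherwise, with a black bar at each median; RB1 (−3.43) is not drawn or counted in its list's bar. Among G1/S output genes 15 of 19 are red, against 4 of 25 other cyclins and CDKs and 12.8% of all genes tested.

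The genes whose level followed CDC25A most closely over the 6 libraries (Pearson correlation of log2 CPM, genes of at least 5 CPM on average) were TMSB4X (0.9985), METTL7A (0.9982) and NME1 (0.9974). For CDK2 they were FGFRL1 (0.9967), CHRNE (0.9955) and CDCA4 (0.9954). A correlation above 0.95 was reached by 462 of 9985 genes for CDC25A and by 355 for CDK2. The 6 libraries fall into the 2 hairpin groups, so these values mostly record a shared difference between the groups, and they are given as a description.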

How the data were processed

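The deposited table holds unnormalized counts of reads for each transcript ID, per the file headers and the whole-number values. The submitters' processing notes list STAR, HOMER, edgeR and hg19 but no version and no role for each. Annotation, counting options and strand use: not given in the sources used here. Libraries were TruSeq RNA preparations of total RNA, per the labels' protocols. IDs were named through GENCODE release 29 (22182 of 22279 matched), which was also used for transcript length, GC content, gene order and exon overlap.

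Counts were filtered with filterByExpr (minimum count 10, minimum total 15), scaled by TMM and tested with edgeR 4.0.16 (glmQLFit, glmQLFTest) in R 4.3.3, with group as the only term and Benjamini-Hochberg adjustment over all genes. The SE was the log2 fold change divided by the square root of F. Shares were compared by exact permutation over the 6 libraries. Correlations used log2 CPM with 0.5 added. Chi-square per degree of freedom between replicates of a group was 2.25 to 11.3, above sampling noise, so no library was a copy of another. This value cannot tell separate cultures from repeat preparations of the same culture. On simulated counts for shRB over shCON (11687 genes tested), 18.4% of genes changed 1.25-fold, 73.5% changed 1.5-fold and 92% changed 2-fold were recovered, with 8 false among 148 calls. The simulated libraries held no deviation linked to GC content such as that seen in the real ones, so these rates may not hold for them.

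Members and lists were chosen with earlier results of these data known. Named genes were the 10 members, RB1 and the 3 smallest p of each list. Also named were the 3 most correlated genes for the 2 members of smallest p, and genes whose exons overlap a member. Overlapping genes not taken up above were AC008012.1 (same strand, 15.3% of the CCND2 transcript), CCND2-AS1 (opposite strand, 1.94%) and AC087752.4 (opposite strand, 0.12% of CCNE2). Genes named outside this rule are said to be so, list genes without a row were not analysed here, and 1 gene of the lists is not reported here. Alternatives were DESeq2 1.42.0, limma-voom (limma 3.58.1), other normalizations, filters and a stricter threshold, the replicate number as a block, and each library or the 20 most abundant genes left out.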

Additional observations from a re-analysis of the deposited data

How the results depend on the processing

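CDC25A, CDK2 and CCNE1 kept their direction and call in all 16 alternatives. CCND3 lost its call without shCON 1 and at the 0.01 threshold, CDK4 in those and without shCON 3, and SKP2 in 11 of 16. CCNE2, not called in any setting, was −0.0077 with upper quartile normalization, −0.0040 without shRB 1 and −0.078 without shCON 2 (−0.078 to 0.128 with 1 library left out). With 1 library left out, 3 to 6 members rose and 0 fell, with 3 without shCON 1 and 4 without shCON 3, and 863 to 2074 of all genes were higher and 912 to 1956 lower. All genes higher were 863 without shCON 1 and 969 without shCON 3, and lower 912 and 964. At a threshold of 0.01 there were 787 higher, 793 lower and 3 members higher. With counts not divided by length, the CCND1 share differed by −4.53 and the CDK4 share by −0.082 percentage points. With 1 library left out, the difference was −6.90 to −5.54 for CCND1, −0.021 to −0.0076 for CDK4 and 8.02 to 10.3 for CCNE1. The cause of these changes was not tested.

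Same-numbered libraries of the 2 groups had deviations that correlated at 0.27, 0.39 and 0.0022, and shRB 3 correlated best with shCON 1 (0.31), so the numbers were not taken as pairs. With the replicate block, 2203 genes were higher and 2294 lower, and 6 members higher and 0 lower. Depth limits CCND2 and CDK6, which had at most 8 counts in a library. Exon overlap without known strand use limits CCNE2 and CDK4.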
